A study of Mus musculus with 12 samples.

Results

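Multi-exon circular RNAs (circRNAs) whose back-splice joins the end of a later exon to the start of exon 2 were examined in mouse liver. A circRNA was counted here when its ends lay less than 50000 bp apart and both fell on exon boundaries of the same protein-coding GENCODE M21 transcript, with exon 2 first in transcription order and at least 2 exons in the circle. Of the 16445 circRNAs in the deposited table, 3168 from 1976 host genes met this rule. They are called exon 2 circRNAs below, and multi-exon circRNAs that met the other conditions but began at exon 3 or later (11086 circRNAs, 3682 host genes) are called later-start circRNAs.

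The libraries came from livers of 12 mice, labelled as strain C57BL/8. Every mouse received injections of carbon tetrachloride (CCl4), a toxin used to induce liver fibrosis, at 10% and 10 µl for each 10 g of weight, until the liver was collected in week 8. In the Control group (6 mice) nothing was added to CCl4. In the PZH group (6 mice) Pien Tze Huang (PZH), a remedy of traditional Chinese medicine, was also given, once a day at 25 mg/ml in weeks 2 to 8. Livers without CCl4 were not analysed here, and the labels used here give no age. Each library is the whole liver RNA of a separate mouse according to the labels, so fewer cells of a type and less circRNA per cell cannot be told apart. Values are in SRPBM, in this field the number of reads across a back-splice junction scaled to a library's mapped reads.

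Back-splicing makes a closed loop when the splice donor at the end of an exon attacks an acceptor that lies upstream of it. The first exon of a transcript has no acceptor in front of it, so exon 2 is the earliest exon at which such a loop can begin. Long introns on both sides of the looped exons, and base pairing between repeats in them, are known to favour the reaction. RNA-binding proteins such as Quaking assist it, and exonic circles lack a cap and a poly(A) tail and are generally long-lived.

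The junction itself is what the libraries counted, and the following junctions are shown because they belong to the most abundant exon 2 circRNAs, to the shortest circle and to circles whose levels are compared between the groups below. Each line gives the last 15 bases of the final exon in lower case, followed in capitals by the first 15 bases of exon 2, 5′ to 3′, from the GENCODE M21 transcript on GRCm38. All listed junctions lie within coding sequence at both ends.
Asph exons 2 to 3 (chr4:9635901-9639347, minus strand): ccaaagttttattagAGGCAAAGCACGGAG
Tlk1 exons 2 to 3 (chr2:70770004-70786995, minus strand): gacaaagaatcagagGTGCAATGGATGAGC
Rnf169 exons 2 to 4 (chr7:99935162-99955540, minus strand): agcgttcctggcaggAGTTTATATTCAGAA
Ube2k exons 2 to 6 (chr5:65565989-65594548, plus strand): atgggttttgataggACGAGCAAAAATCAA
Cd2ap exons 2 to 3 (chr17:42845326-42852528, minus strand): aagctattaagaagaTTGACTATATTGTGG
Ube2g2 exons 2 to 3 (chr10:77630726-77630894, plus strand): ggaggcattgatcatAATTAACCCTGAATC
Rps6kb1 exons 2 to 4 (chr11:86532772-86535460, minus strand): aaggtgcttaaaaagGGTCAGTTAAATGAA
Gclc exons 2 to 4 (chr9:77775079-77779635, plus strand): gcacccccgcttcggGTGGAGTACATGTTG

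The letters at the joined exon edges were those found at other circles. The final exon ended in AG in 55.9% of exon 2 circRNAs and 56.5% of later-start circRNAs, and the first exon began with G in 47.5% and 45.3%. The Asph and Rnf169 junctions above show other arrangements: the first ends its final exon in AG and opens exon 2 with A, and the second closes with GG. The splice sites in the introns were not analysed here.

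Exon 2 was the most common place for a circle to start, and it carried more signal than its share of junctions. Of 14260 multi-exon circRNAs under 50000 bp with any first exon, 22.2% began at exon 2, and these held 35.7% of the summed mean SRPBM. Exon 3 followed with 13.5% of junctions and 14.9% of the signal, and exon 4 with 10.4% and 11.3%. Not every transcript has enough exons for a later start, and these shares were not corrected for that. Only 6 junctions, 0.0421%, were assigned to exon 1. In the plot of junctions and signal by first exon, the signal bar is taller than the junction bar at exons 2, 3 and 4 and shorter at exons 5 to 10.

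**Figure D1:**
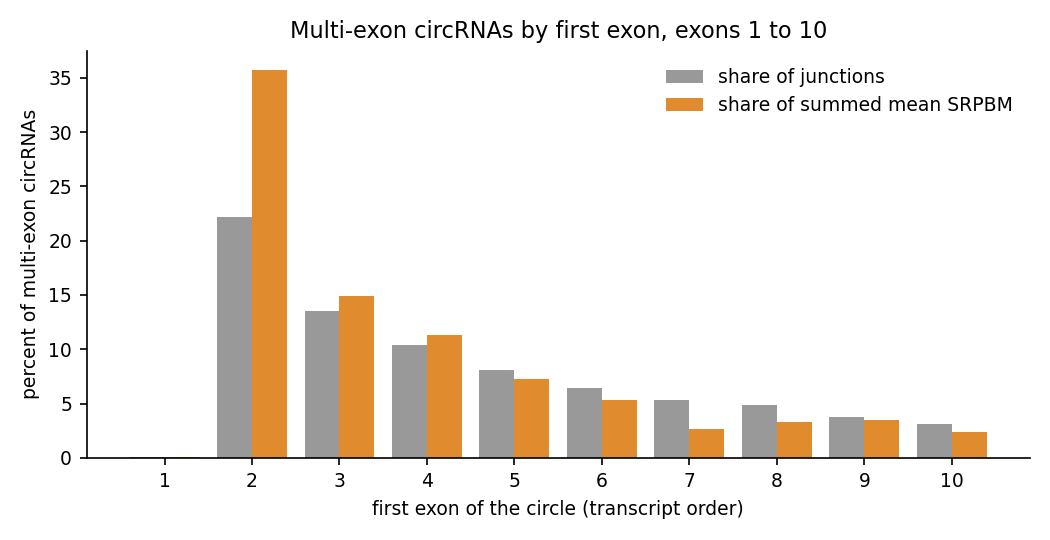
Share of multi-exon circRNA junctions (grey bars) and of their summed mean SRPBM over 12 libraries (orange bars), in percent, by the first exon of the circle for exons 1 to 10. Exon 2 holds 22.2% of junctions and 35.7% of the signal, and exon 3 holds 13.5% and 14.9%.

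The circles starting at exon 2 were mostly small. They held a median of 3 exons (quartiles 2 and 5), 451 bp of annotated exon sequence and a genomic span of 8715 bp, against 408 bp and 5592 bp for later-start circRNAs. By the last exon, 843 ended at exon 3, 799 at exon 4 and 577 at exon 5, and these classes held 37.9%, 31.2% and 12.1% of the exon 2 signal. The 949 circles of 5 or more exons held 18.8%. The largest number of exons was 16, in a circle of exons 2 to 17 of Sec31a, which encodes a coat protein of vesicles leaving the endoplasmic reticulum. It was above 0 in 1 library, at 2.00 SRPBM. The longest exon content, 5866 bp, belonged to exons 2 to 3 of the transcriptional coregulator gene Tcf20, above 0 in 2 PZH libraries. The shortest, 82 bp, was that of exons 2 to 3 of Ube2g2, which encodes a ubiquitin-conjugating enzyme of endoplasmic reticulum protein degradation. This circle was abundant, with a mean of 95.5 SRPBM.

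The intron in front of an exon 2 circle is the first intron of the transcript, and it was long. Its median length was 14108 bp, against 4071 bp for the intron in front of later-start circles, while the downstream introns were closer (4946 and 3842 bp). The upstream intron was the longer of the flanking pair in 78.7% of exon 2 circRNAs and 51.1% of later-start circRNAs. Both comparisons set first introns against introns farther along. First introns without an exon 2 circle were not measured, so a trait of the circles cannot be told apart from one of first introns. Among the 300 exon 2 circRNAs above 0 in all 12 libraries, the median was 18166 bp upstream and 9999.5 bp downstream. For the abundant circles printed above, the first intron measured 29433 bp in Asph, 38197 bp in Tlk1, 24431 bp in Rnf169, 28442 bp in Ube2k and 23784 bp in Cd2ap. The short circle of Ube2g2 had a first intron of 8309 bp and a downstream intron of 10565 bp.

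An annotated start codon lay inside 1080 exon 2 circRNAs (34.1%), in exon 2 itself in 890 and in a later exon in 190. In 2053 circRNAs (64.8%) it lay upstream, in the exon left out of the circle, and in 35 downstream. Only 3.41% of later-start circRNAs contained the start codon. Of the 2045 exon 2 circRNAs made wholly of coding sequence, 37.0% had a length divisible by 3, and of the later-start circRNAs of that kind 38.6% did. Asph, Ube2k, Cd2ap and Rps6kb1 above belong to this class, with 219, 465, 315 and 240 bp. Only junction reads were measured, so the lengths are of annotated exons and not of sequenced circles.

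Most exon 2 circRNAs were rare, yet fewer of them were seen in a single library than in the table as a whole. A total of 1205 (38.0%) were above 0 in 1 library, 913 (28.8%) in at least 6 and 300 (9.47%) in all 12. In the whole table the shares were 44.2%, 23.5% and 6.62%. The 300 circles seen in every library carried 75.1% of the exon 2 signal, and the 10 most abundant carried 25.4%.

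Within each library, an exon 2 circRNA above 0 was typically more abundant than a later-start circRNA above 0. The medians were 2.96 to 3.95 SRPBM and 2.34 to 2.89 SRPBM over the 12 libraries. On the log2 scale the difference of medians averaged 0.39 (SD 0.08 over libraries, range 0.26 to 0.53), a ratio of 1.31, and exon 2 circRNAs were higher in 12 of 12 libraries. The exact sign-flip permutation p over libraries was 4.88e-04, the smallest that 12 libraries can give, and it describes these 12 livers, whose circRNAs come from the same genes. The difference was 0.39 among circles of 2 exons, 0.53 among those of 3, 0.34 among those of 4 and 0.29 among those of 5 or more, each in 12 of 12 libraries. The difference did not separate the groups, with means of 0.40 in PZH and 0.38 in Control (n = 6 each, exact permutation p = 0.725, 2-sided).

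A related comparison was made inside host genes, on summed signal rather than on the level of single circles. It therefore also depends on how many circles of each kind a host has. In 55 hosts with both an exon 2 and a later-start circle above 0 in all 12 libraries, the exon 2 circles held a median of 63.7% of the host's signal in such circles, and over 50% in 35 hosts. At the high end were Rnf169 (99.1% in PZH and 98.9% in Control), Tlk1 (98.3%) and Ube2k (98.0%). At the low end were Rabgap1l (6.29%), a RAB GTPase-activating protein gene, and Abca1 (7.88%), the cholesterol efflux transporter, where later exons held most of the signal. These genes were named for their extreme values after the values were seen.

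The most abundant exon 2 circRNA came from Asph, which encodes an endoplasmic reticulum aspartate beta-hydroxylase. Its circle of exons 2 to 3 lay between 633 and 868 SRPBM in PZH (median 749) and between 605 and 931 in Control (median 770.1). The circle of exons 2 to 3 of Tlk1, a tousled-like kinase of chromatin assembly, was at 550.3 to 666 in PZH (median 618) and 551 to 752 in Control (median 641). That of exons 2 to 4 of Rnf169, a ubiquitin-binding protein of the DNA damage response, was at 542 to 688 (median 602) and 484 to 667 (median 598). The groups overlapped almost completely in all 3, which stood well above the other exon 2 circRNAs.

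The remaining 7 of the 10 most abundant circles had means between 107 and 186 SRPBM. Ube2k, a ubiquitin-conjugating enzyme gene, gave exons 2 to 6 at 153 to 238 SRPBM in PZH (median 201) and 115 to 214 in Control (median 178). Cd2ap, a scaffold between membrane receptors and actin, gave exons 2 to 3 at 105 to 151 (median 130.4) and 97.8 to 154 (median 126). Exons 2 to 3 of Ezh2, the histone methyltransferase of Polycomb repressive complex 2, in the form with 253 bp of exon, were at 105 to 147 (median 119) and 95.8 to 124 (median 108). In these 3 the groups overlapped.

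Zfp148, a zinc finger transcription factor gene, gave exons 2 to 4 at 104 to 174 SRPBM in PZH (median 109.7) and 82.4 to 114 in Control (median 100.2). The circle of exons 2 to 4 of Ube3a, an E3 ubiquitin ligase, was at 83.4 to 128 (median 118) and 86.3 to 128 (median 117). That of exons 2 to 4 of Erbin, a scaffold of cell junctions, was at 80.4 to 124 (median 101) and 86.5 to 129 (median 115). These ranges also overlapped, and the limma log2 fold changes of the 10 circles other than Ttc39c lay between -0.14 and 0.31 with adjusted p of 0.610 or more. The last of the 10, exons 2 to 6 of Ttc39c, did not overlap between the groups, as the plot of the 10 circles by library shows.

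**Figure D2:**
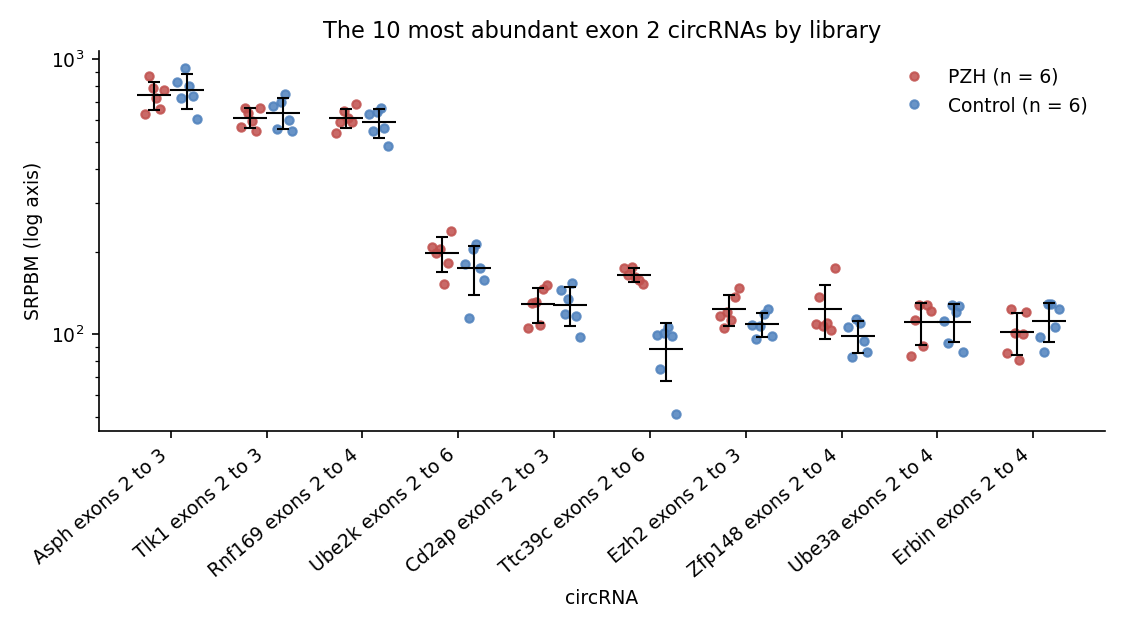
SRPBM on a log axis of the 10 most abundant exon 2 circRNAs in each of 6 PZH and 6 Control libraries (points), with group means and SD (bars). The groups overlap for every circle but Ttc39c exons 2 to 6, at 152 to 176 SRPBM in PZH and 51.5 to 106 in Control.

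Most host genes made a single exon 2 circRNA: 1271 had 1, 705 had at least 2 and 38 had at least 5. The hosts with most were Tlk1 and Strn3 with 9 each, Papola with 8, and Asxl2 and Zfp236 with 7 each. In each of these genes all circles shared the start of exon 2 and differed in their end. They used it unequally. In Tlk1 the circle of exons 2 to 3 held 97.2% of the exon 2 signal, and the next, exons 2 to 12, reached at most 15.3 SRPBM and was listed at 0 in 1 library of each group.

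In Strn3, a striatin family scaffold of a phosphatase complex, the circle of exons 2 to 7 held 52.6%. It was at 51.9 to 59.8 SRPBM in PZH (median 54.7) and 41.8 to 65.6 in Control (median 49.9), and the circle of exons 2 to 4 was at 29.4 to 51.0 (median 34.4) and 29.8 to 51.7 (median 38.8). In Asxl2, a Polycomb-associated chromatin regulator gene, the circles of exons 2 to 5 and 2 to 7 had means of 39.2 and 32.2 SRPBM. Papola, the nuclear poly(A) polymerase gene, and the zinc finger gene Zfp236 spread a low signal over many ends, the leading circle holding 41.8% and 25.6% of it. The summed exon 2 signal of these 5 hosts did not separate the groups (exact permutation p of 0.201 to 0.857, n = 6 each, 2-sided, not adjusted over the 5).

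Choice of the end was compared between the groups in 48 sets of circles from the same gene and exon 2 start with at least 2 ends above 0 in all 12 libraries, 41 of them with 2 ends and the others with up to 3. The more abundant circle held a median of 65.7% of the signal. It ended nearer to exon 2 than the others in 19 sets and farther than the others in 28. For each set the log2 ratio of the leading circle to the other ends was compared by an exact permutation test, in which 8 had an unadjusted p under 0.05 and none an adjusted p under 0.05 over the 48 sets (Benjamini-Hochberg). The smallest adjusted p was 0.104, and no p under 0.00216 was possible with 6 libraries against 6.

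The smallest p belonged to Ttc39c, which encodes a tetratricopeptide repeat protein and whose longer circle was already known to differ. Exons 2 to 6 held 80.4% to 84.0% of the signal of exons 2 to 6 and 2 to 4 together in PZH and 66.0% to 76.7% in Control (exact permutation p = 0.00216, adjusted p = 0.104). For Cacul1, a CDK2-associated cullin-domain protein gene, exons 2 to 3 held 48.2% to 63.3% in PZH and 58.2% to 74.4% in Control, the rest being exons 2 to 5 (exact permutation p = 0.0108, adjusted p = 0.121). The groups overlapped in Cacul1, with means of 55.5% in PZH and 68.8% in Control for the shorter circle.

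For Ezh2 the pair of ends differed by 27 bp in the same exon, on chr6:47576536-47576562 (GRCm38, minus strand). The longer circle ends at the outer boundary and has 253 bp of exon, and the shorter has 226 bp. The bases present only in the longer circle are shown because they are the whole difference, with their first pair of letters, GT, in capitals as the letters that follow the shorter exon and are typical of a splice donor.
Ezh2 exon 3, bases of the longer end: GTgagctcattgcgcgggactagggag
The longer circle held 72.3% to 78.4% of the pair's signal in PZH and 78.1% to 84.6% in Control (exact permutation p = 0.00649, adjusted p = 0.121). The longer circle is among the 10 given above, with overlapping groups, and the shorter circle was at 32.2 to 50.3 SRPBM in PZH (median 38.4) and 22.4 to 29.7 in Control (median 27.6), without overlap. The shorter circle did not pass in limma (log2 fold change 0.53, SE 0.16, adjusted p = 0.451). The plot of end shares shows all 3 genes by library.

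**Figure D3:**
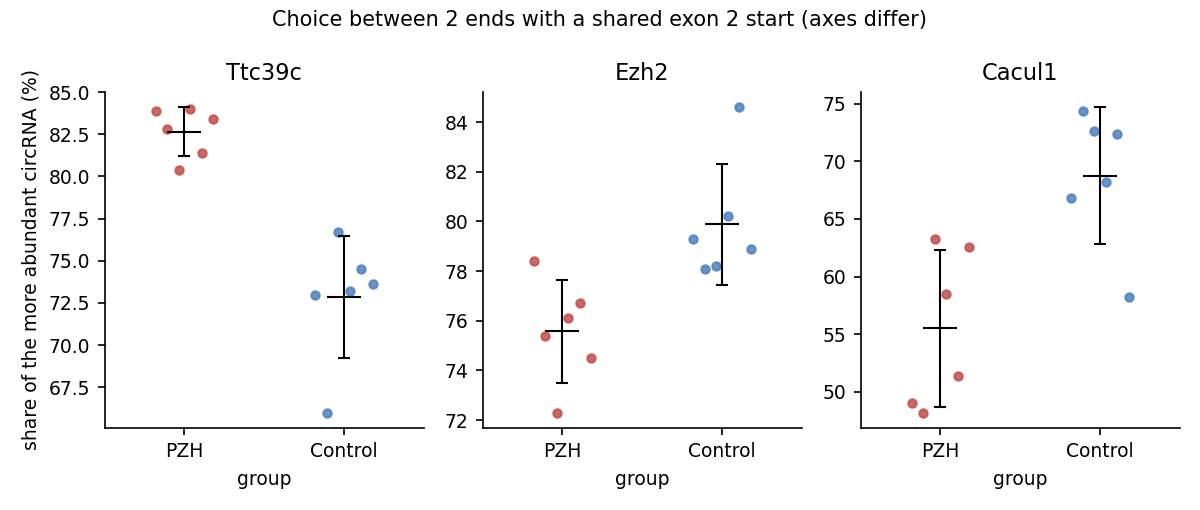
Share of the more abundant circle, in percent of the signal of both ends with a shared exon 2 start, for Ttc39c, Ezh2 and Cacul1 in 6 PZH and 6 Control libraries (points) with means and SD (bars, axes differ between panels and do not start at 0). Ttc39c lies at 80.4% to 84.0% in PZH and 66.0% to 76.7% in Control, and no set passed after adjustment.

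No difference between the groups was detected in the part of the liver's circRNA signal that exon 2 circRNAs held. Their share of summed SRPBM was 31.8% ± 0.583 with PZH and 31.4% ± 0.746 without (mean ± SD of 6 libraries each), and a 2-sided exact permutation test gave p = 0.305. The number above 0 per library was 1126 ± 72.2 and 1072 ± 148 (exact permutation p = 0.487), from 810 in Control replicate 2 to 1204 in PZH replicate 6. Summed over all circRNAs, the libraries held 28922 to 41080.2 SRPBM, and their smallest value above 0 was 0.584 to 0.719. The number of reads behind a value is not given in the table, so no counting interval is given.

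Among single circRNAs, limma called 1 of the 913 exon 2 circRNAs tested as higher in PZH and 0 as lower, at an adjusted p under 0.05. The background over all 3870 circRNAs tested was 0.0517% higher and 0% lower. The exon 2 circRNA that rose was exons 2 to 6 of Ttc39c, at 152 to 176 SRPBM in PZH (median 163) and 51.5 to 106 in Control (median 98.9). The log2 fold change was 0.93 (SE 0.15, limma adjusted p = 0.00958), and it did not pass when limma was fitted without a variance trend (adjusted p = 0.522). The Ttc39c circle that ends at exon 4 was at 30.4 to 43.1 SRPBM in PZH (median 33.8) and 18.5 to 38.9 in Control (median 35.2), and the groups overlapped.

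At an unadjusted p under 0.05 in limma, 60 exon 2 circRNAs (6.57%) were higher and 27 (2.96%) lower in PZH, against a background of 4.55% higher and 3.00% lower over all circRNAs tested. Later-start circRNAs had 3.84% and 2.93%. A positive log2 fold change was found in 57.5% of exon 2 circRNAs, beside 54.3% of all, and the median log2 fold change was 0.12, beside 0.06. Of the 87 exon 2 circRNAs under that p, 69.0% were higher. With scaling by summed SRPBM, by the median of ratios or by quantiles this share was 60.4%, 58.7% and 61.9%.

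Next to Ttc39c on the higher side, none of the 4 circRNAs with the smallest p passed. The circle of exons 2 to 5 of Sos2, a RAS guanine nucleotide exchange factor, was at 1.91 to 3.93 SRPBM in PZH (median 2.52) and listed at 0 in all 6 Control libraries (limma adjusted p = 0.102). It met the filter of 6 libraries only through PZH, so its separation and small p follow in part from the filter. Exons 2 to 6 of Rreb1, a zinc finger factor that binds RAS-responsive elements, were at 29.7 to 47.3 SRPBM in PZH (median 41.2) and 18.6 to 30.7 in Control (median 24.3), so the lowest PZH library lay below the highest Control library (log2 fold change 0.72, SE 0.17, limma adjusted p = 0.263). Exons 2 to 11 of Aass, the enzyme that starts lysine breakdown, were at 30.4 to 73.9 (median 42.5) and 18.6 to 29.8 (median 27.8), without overlap (limma adjusted p = 0.363).

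The circle of exons 2 to 6 of Agap1, an ARF GTPase-activating protein gene with a first intron of 149005 bp, lay between 3.10 and 8.15 SRPBM in PZH and was listed at 0 in 4 Control libraries, with up to 3.93 in the remaining 2 (limma adjusted p = 0.363). It shares with Rreb1, Aass and Ttc39c a content of 5 or more exons, and Sos2 has 4.

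On the lower side none of the 5 circRNAs with the smallest p passed either. In Control, exons 2 to 4 of Lemd3, a SMAD-binding protein of the inner nuclear membrane, were at 20.7 to 42.5 SRPBM and exons 2 to 3 of the protocadherin gene Pcdh17 at 13.0 to 23.8. Each was listed at 0 in 4 PZH libraries and reached 39.6 and 16.2 in the others, so the groups overlapped (limma adjusted p = 0.182 for both). Exons 2 to 3 of Rad23b, a shuttle for ubiquitinated proteins and DNA damage recognition, were at 9.75 to 23.4 SRPBM in Control (median 16.4) and from 0 to 10.7 in PZH, with 1 library listed at 0 (limma adjusted p = 0.454).

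Exons 2 to 4 of Gclc, the catalytic subunit of the enzyme that starts glutathione synthesis, were at 20.6 to 37.6 SRPBM in PZH (median 32.8) and 39.2 to 64.5 in Control (median 42.4), without overlap. The log2 fold change was -0.55 (SE 0.18, limma adjusted p = 0.454). The short circle of Ube2g2 was at 57.2 to 97.0 SRPBM in PZH (median 88.7) and 92.5 to 119.9 in Control (median 111), a log2 fold change of -0.39 (SE 0.13, limma adjusted p = 0.454). Its groups overlapped by a narrow margin.

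Without regard to a test, the libraries of the groups did not overlap for 7 exon 2 circRNAs that were higher in PZH (0.767%, background 0.491%) and 1 that was lower (0.110%, background 0.181%). The 7 were Ttc39c, Aass, the shorter Ezh2 circle, Sos2 and 3 named only for this pattern after the values were seen. Those were exons 2 to 4 of the chromatin corepressor gene Rere, at 10.3 to 22.2 SRPBM in PZH and from 0 to 8.34 in Control, exons 2 to 3 of Mtpap, the mitochondrial poly(A) polymerase, at 7.64 to 11.8 and 3.68 to 7.56, and exons 2 to 4 of Eefsec, the selenocysteine elongation factor, at 3.06 to 7.22 and from 0 to 2.92. The circle that was lower was that of Gclc. Sos2, at 0 in all 6 Control libraries, could be tested only if above 0 in every PZH library, so its lack of overlap was fixed by the filter.

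By presence alone, 13 exon 2 circRNAs were above 0 in at least 5 PZH libraries and at most 1 Control library, 0.410% against a background of 0.274% in the whole table. In the opposite direction there were 2, 0.0631% against 0.152%. These 2 were exons 2 to 3 of Stau1, a double-stranded RNA-binding protein gene, and exons 2 to 5 of the zinc finger gene Zkscan1, each above 0 in 5 Control libraries and 1 PZH library at no more than 3.96 SRPBM. Both were named for the pattern after the values were seen.

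Sorted by size, the exon 2 circRNAs with more exons leaned towards PZH. The median log2 fold change was 0.03 for circles of 2 exons, 0.09 for 3, 0.15 for 4 and 0.25 for 5 or more, on 281, 251, 179 and 202 circRNAs tested. Positive values made up 52.0%, 53.8%, 57.5% and 69.8%, beside 54.3% of all circRNAs tested. In later-start circRNAs of the same sizes they made up 46.5%, 51.1%, 58.6% and 61.1%, with medians of -0.04, 0.02, 0.14 and 0.18. Values thus rose with size in later-start circRNAs as well. At an unadjusted p under 0.05 in limma, 28 circles of 5 or more exons were higher and 1 lower (exons 2 to 6 of the myotubularin gene Mtm1), while for 2 exons 7 were higher and 14 lower. The background over all circRNAs tested was 4.55% higher and 3.00% lower. Later-start circRNAs had 33 higher and 7 lower with 5 or more exons, and 18 and 40 with 2 exons. More later-start than exon 2 circRNAs were tested in each class, so the counts must be read against the number tested. Read in this way, higher circles of 5 or more exons were more frequent among exon 2 than later-start circRNAs, and lower ones less frequent. With 2 exons the frequencies were close in both sets. The difference in frequency between the sets was not tested. Without Control replicate 2, circles of 5 or more exons had a median of 0.15 with 18 higher and 2 lower, and those of 2 exons had a median of -0.04. The number of higher 2-exon circles was 3 without PZH replicate 3, 4 without PZH replicate 6 and 4 without Control replicate 5, and the number of lower circles of 5 or more exons was at most 3 without any library. The plot of fold changes by exon number shows the boxes moving up with size and a wide spread in every class. Among circles above 0 in all 12 libraries, 45 of 58 with 5 or more exons and 47 of 90 with 2 exons had positive values.

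**Figure D4:**
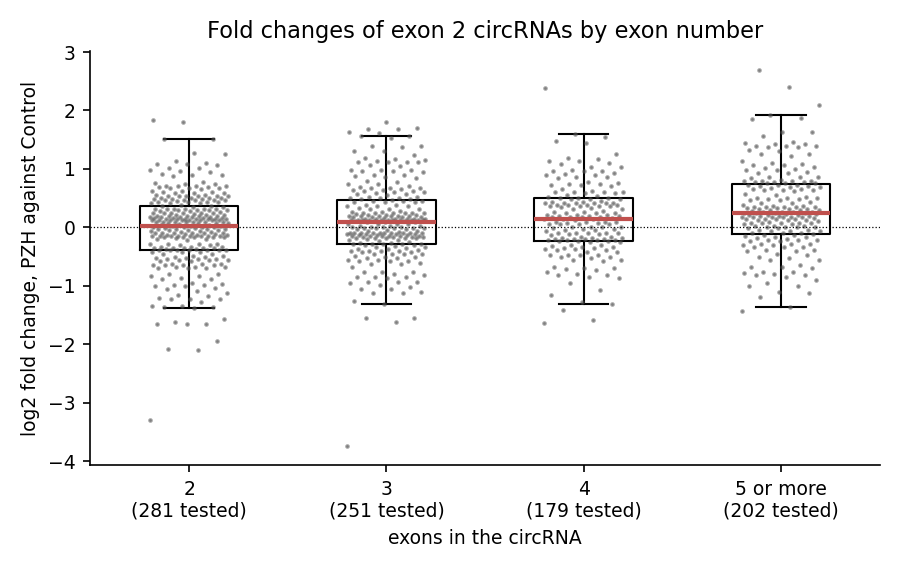
Limma log2 fold change, PZH against Control, of each exon 2 circRNA tested (points), by number of exons, with boxes for the quartiles, red lines for medians and whiskers to the farthest point within 1.5 box lengths. The medians are 0.03, 0.09, 0.15 and 0.25 for 2, 3, 4 and 5 or more exons.

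As a value per library, circles of 2 exons held a smaller part of the exon 2 signal in PZH. Their share lay between 35.9% and 37.6% in PZH and between 38.5% and 41.8% in Control, with means of 36.6% ± 0.694 and 39.3% ± 1.24 (SD, n = 6 each). The groups did not overlap, and the exact permutation p was 0.00216, the smallest that 6 libraries against 6 can give (adjusted p = 0.00649 over 15 shares, Benjamini-Hochberg). The share of circles with 5 or more exons rose, from 17.3% ± 1.32 in Control (15.1% to 18.9%) to 20.1% ± 0.626 in PZH (19.3% to 20.9%; exact permutation p = 0.00216, adjusted p = 0.00649). Circles of 4 exons held 12.4% ± 0.324 and 11.7% ± 0.469, with some overlap (exact permutation p = 0.0152, adjusted p = 0.0284). Circles of 3 exons held 30.9% ± 0.543 and 31.7% ± 0.859 and did not pass (exact permutation p = 0.0823, adjusted p = 0.112). The exon classes add up to the whole exon 2 signal of each library, so the fall and the rise are not separate results. A smaller share is also not by itself a lower level, and the median log2 fold change of 2-exon circles was 0.03.

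These shares were compared after the data had been seen. Before them, 11 values per library had been compared, and the 15 shares and the lengths below were chosen because some of those 11 separated the groups, so their p-values are too small by an unknown amount. The groups stayed apart in the 2-exon share when leading circles were left out. Without the Ttc39c circle of exons 2 to 6 the share of 2-exon circles was 36.3% to 38.1% in PZH and 38.8% to 42.1% in Control, without the 10 most abundant circles it was 28.9% to 31.5% and 31.9% to 35.0%, and among circles above 0 in all libraries it was 37.3% to 39.0% and 39.5% to 41.6%. For 5 or more exons the groups overlapped in each of these subsets, with an exact permutation p of 0.00433 in each. The means in PZH and Control were 18.9% and 16.6% without the Ttc39c circle, 22.7% and 20.0% without the 10 most abundant, and 18.8% and 16.2% among circles above 0 in all libraries.

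The same shift was present in later-start circRNAs. Among them, circles of 2 exons held 34.8% ± 0.845 of the signal in PZH and 38.3% ± 1.08 in Control, and those of 5 or more exons 22.6% ± 0.695 and 20.2% ± 0.945 (exact permutation p = 0.00216 and adjusted p = 0.00649 for each). The difference between exon 2 and later-start shares did not separate the groups for 2 exons (exact permutation p = 0.208) or for 5 or more exons (exact permutation p = 0.266). The libraries' summed SRPBM and numbers of circRNAs above 0 had overlapping ranges (exact permutation p = 0.679 and 0.556).

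Length was also greater in PZH, over all exon 2 circRNAs and within most classes of exon number. The mean annotated exon length, weighted by SRPBM, was 422 ± 7.58 bp in PZH and 399 ± 10.3 bp in Control for exon 2 circRNAs (n = 6 each, exact permutation p = 0.00433, adjusted p = 0.00606 over 7 lengths). Within the circles of 2 exons it was 306 ± 7.44 and 291 ± 6.81 bp (exact permutation p = 0.00649, adjusted p = 0.00758), and within those of 5 or more 661 ± 9.05 and 639 ± 8.35 bp (exact permutation p = 0.00433, adjusted p = 0.00606). Circles of 3 exons were at 378 ± 3.45 and 371 ± 5.32 bp (exact permutation p = 0.00433, adjusted p = 0.00606). Circles of 4 exons did not pass, at 489 ± 7.49 and 481 ± 5.15 bp (exact permutation p = 0.0671, adjusted p = 0.0671). In later-start circRNAs it was 421 ± 6.62 and 404 ± 7.51 bp (exact permutation p = 0.00433, adjusted p = 0.00606).

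Circles that contain the annotated start codon held 28.4% to 31.1% of the exon 2 signal in PZH and 27.1% to 28.3% in Control, without overlap (means 30.1% ± 1.04 and 27.5% ± 0.415, n = 6 each, exact permutation p = 0.00216, adjusted p = 0.00649). In later-start circRNAs the share was 7.58% ± 0.392 and 7.53% ± 0.273 (exact permutation p = 0.755). The difference between the exon 2 and the later-start share, tested itself, was 20.5 to 23.8 percentage points in PZH and 19.4 to 20.9 in Control, with overlap (exact permutation p = 0.00649, adjusted p = 0.0162). Few later-start circles hold the start codon (3.41%), so this largely repeats the exon 2 comparison. PZH minus Control was 2.48 percentage points for the difference and 2.54 for the exon 2 share. The circle of exons 2 to 6 of Ttc39c contains a start codon in exon 2, and without it the share was 27.4% to 30.3% in PZH and 26.4% to 27.9% in Control, with overlap (exact permutation p = 0.00433). Without the 10 most abundant circles the means were 33.0% and 30.7%, also with overlap (exact permutation p = 0.00649). Among circles above 0 in all libraries the share was 28.0% to 29.9% in PZH and 25.9% to 27.0% in Control, without overlap (exact permutation p = 0.00216). Circles with the start codon were also longer, with a median of 516 bp against 419.5 bp without, and the part of length in this share was not tested. By exon number, the median log2 fold change with and without the start codon was 0.09 and -0.00 for 2 exons and 0.19 and -0.03 for 3. It was 0.09 and 0.15 for 4 exons, the other way, and 0.41 and 0.18 for 5 or more.

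**Figure D5:**
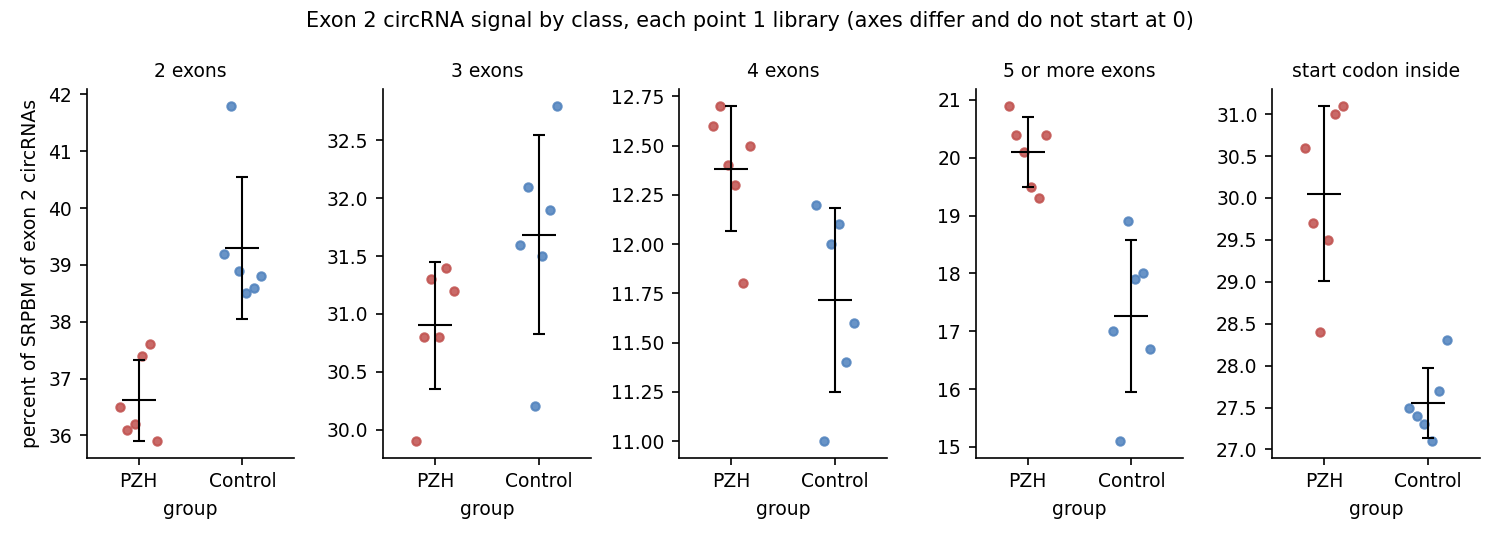
Share of the exon 2 circRNA signal, in percent of SRPBM, held by circles of 2, 3, 4 and 5 or more exons and by circles with the annotated start codon inside, in 6 PZH and 6 Control libraries (points) with means and SD (bars, axes differ between panels and do not start at 0). The groups do not overlap for 2 exons (35.9% to 37.6% in PZH, 38.5% to 41.8% in Control), for 5 or more exons and for the start codon.

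The host genes of the exon 2 circRNAs were described by function, and no circRNA of the lists below passed the threshold in limma after adjustment over all circRNAs tested. The largest lists by signal were ubiquitin and protein turnover genes, with 91 exon 2 circRNAs from 39 of 81 genes, and amino acid metabolism genes, with 32 from 19 of 78 genes. Asph holds most of the latter signal, and its enzyme acts on protein side chains rather than on free amino acids. The lists were assembled with earlier results of these data known. Their counts at an unadjusted p under 0.05 stand beside a background of 4.55% higher and 3.00% lower, and their counts of positive values beside 54.3%.

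For ubiquitin and protein turnover, 34 circRNAs were tested, 22 had a positive log2 fold change and 12 a negative one, and none had an unadjusted p under 0.05. The median was 0.09. Of the 11 tested from amino acid and urea cycle genes, 9 were positive, the median was 0.41, and 2 were higher at an unadjusted p under 0.05, that of Aass above and exons 2 to 6 of Bckdhb. The Bckdhb circle, from a subunit gene of the branched-chain keto acid dehydrogenase, was at 81.3 to 127 SRPBM in PZH (median 100.4) and 52.5 to 104 in Control (median 77.0), with overlap (log2 fold change 0.41, SE 0.17, limma adjusted p = 0.567).

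Kinase signalling of the MAPK, PI3K and mTOR routes had 80 exon 2 circRNAs, of which 29 were tested and 18 were positive, with a median of 0.15. At an unadjusted p under 0.05, 4 of the 29 were higher and 2 lower, where the background was 4.55% and 3.00%. The higher ones were Sos2 (tested only through its PZH values), Rreb1 exons 2 to 6, Rreb1 exons 2 to 8 (above 0 in 5 PZH libraries and 1 Control library) and Map2k4 exons 2 to 3 (in 6 and 2). The lower ones were Dusp16 exons 2 to 4, a MAPK phosphatase (in 3 and 6), and Rps6kb1 exons 2 to 4, the S6 kinase of the mTOR pathway. The Rps6kb1 circle was at 67.9 to 101 SRPBM in PZH (median 74.0) and 76.8 to 123 in Control (median 96.0), with overlap (log2 fold change -0.36, SE 0.13, limma adjusted p = 0.551). Map2k4, Dusp16 and the longer Rreb1 circle were named after their values were seen. They met the filter of 6 libraries mainly through the group in which they were higher, so their small p follow in part from the filter.

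Chromatin genes had 81 exon 2 circRNAs from 36 of 80 genes, of which 24 were tested, 19 were positive and 2, the shorter Ezh2 circle and that of Rere, were higher at an unadjusted p under 0.05. The median was 0.26. With each of the 3 other scalings 18 of the 24 were positive.

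Regulators of back-splicing had 12 exon 2 circRNAs from 8 of 36 genes. All 6 that were tested had negative log2 fold changes, also with the 3 other scalings, and the median was -0.42 beside 0.06 for all. In the main scaling 54.3% of all circRNAs tested, of every size, were positive. The 6 are not separate genes: Ddx17 gave values of -0.12 and -0.65, and Qk gave -0.19 and -0.09. At an unadjusted p under 0.05, 2 of the 6 were lower (background 3.00%), both from RNA helicase genes and named after their values were seen: exons 2 to 3 of Ddx17, at 4.94 to 9.80 SRPBM in PZH (median 6.13) and 8.40 to 12.8 in Control (median 10.1), and exons 2 to 3 of Dhx9, above 0 in 2 PZH and 6 Control libraries. Their limma adjusted p were 0.612 and 0.567. The Dhx9 circle met the filter of 6 libraries mainly through Control, where it was higher, so its small p follows in part from the filter. Exons 2 to 4 of Qk, the gene of Quaking, were at 8.18 to 24.3 SRPBM in PZH (median 16.1) and 11.8 to 22.7 in Control (median 19.4), with full overlap. Levels of these circles say nothing of the proteins, which were not measured.

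Fatty acid, triglyceride and cholesterol genes had 25 exon 2 circRNAs, of which 8 were tested and 5 were positive, with none at an unadjusted p under 0.05. The leading one, exons 2 to 3 of Acaca, the acetyl-CoA carboxylase of fatty acid synthesis, was at 73.2 to 119.5 SRPBM in PZH (median 92.1) and 65.3 to 91.5 in Control (median 78.2). A circle of exons 2 to 3 of the elongase gene Elovl5 was above 0 in 4 PZH and 5 Control libraries. Drug metabolism, bile acid and transport genes had 30, with 10 tested, 5 positive and 1 lower at an unadjusted p under 0.05, exons 2 to 4 of the efflux pump gene Abcc4 (1.26 to 7.37 and 5.66 to 16.5 SRPBM), named after its values were seen. Its sterol carrier circle, exons 2 to 5 of Scp2, was at 9.74 to 25.4 and 10.7 to 27.6 SRPBM. A circle of Cyp3a25 was also counted, but this gene has near-identical copies and its value is uncertain.

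TGF-beta, SMAD and matrix genes had 25 exon 2 circRNAs, of which 7 were tested and 3 were positive. At an unadjusted p under 0.05, 1 was higher, exons 2 to 4 of the integrin gene Itga9 (above 0 in 6 PZH and 2 Control libraries, named after its values were seen), and 1 lower, that of Lemd3. Each met the filter of 6 libraries mainly through the group in which it was higher, so its small p follows in part from the filter. The circle of exons 2 to 4 of the activin receptor gene Acvr2a was at 13.3 to 21.5 SRPBM in PZH (median 18.4) and 13.9 to 24.6 in Control (median 17.5).

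Few exon 2 circRNAs came from genes that mark liver cell types, so they give little information on cell makeup. Hepatocyte markers had 7 from 4 of 16 genes, with summed levels of 2.46 to 6.18 SRPBM in PZH and from 0 to 4.93 in Control. The leading one, exons 2 to 3 of Tat, the tyrosine aminotransferase of liver, was at 2.46 to 4.13 SRPBM in PZH and above 0 in 4 Control libraries, at up to 3.45. Stellate cell or fibroblast markers had 1 circRNA from 15 genes, exons 2 to 3 of Zeb2 at 0.932 SRPBM in 1 PZH library, and immune markers had 3 from 2 of 14 genes, with sums of at most 3.64 SRPBM in PZH and 0.636 in Control. Endothelial markers had 6 from 3 of 14 genes (3.26 to 7.99 and 0.781 to 11.1 SRPBM), led by exons 2 to 5 and 2 to 8 of Dock4, and cholangiocyte markers had 3 from Fgfr2 only, of 10 genes (at most 2.01 and 0.942 SRPBM). Col1a1, Adgre1, Ptprc, Pecam1, Krt19 and Epcam had no exon 2 circRNA of this kind.

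The circles nearest to the limit on genomic span were rare. Just inside it lay exons 2 to 4 of Rbms1 (49784 bp, mean 0.680 SRPBM), exons 2 to 7 of Gsk3b (49735 bp, 0.252) and exons 2 to 13 of Lrp5 (49602 bp, 0.0556). Just outside lay exons 2 to 11 of Glt1d1 (50007 bp, 0.734), exons 2 to 6 of Akap7 (50105 bp, 0.416) and exons 2 to 11 of Fgd4 (50225 bp, 0.120). Without the limit the rule gave 3404 circRNAs, and with the transcript chosen by the number of exons in the circle it gave 3172, of which 3166 were shared. Another matching transcript would number the first exon differently in 180 of the 3168, and 18 had another possible host gene.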

How the data were processed

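CircRNAs were measured by RNA sequencing of the livers of 6 PZH and 6 Control mice. The deposited table gives, per the file header, a signal named SRPBM for each back-splice junction and library, with GRCm38 positions. Per the submitters' processing notes, the authors used Trim Galore and STAR with GRCm38 (mm10). Not given in the sources used here were program versions, the circRNA caller with its filters, the formula of SRPBM and read depth, and no count model was applied.

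Junctions were matched to exon boundaries of protein-coding GENCODE M21 transcripts, taking basic transcripts first, then those with most exons, then the smallest identifier. Strand and host come from that match. Sequences were taken from GENCODE M21 transcripts, and intronic splice sites were not analysed here.

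The test was limma 3.58.1 under R 4.3.3, with a variance trend, for circRNAs above 0 in 6 or more of 12 libraries. Values entered as log2(SRPBM + 0.636), the added pseudocount being the median over libraries of the smallest value above 0. P-values were 2-sided and adjusted by Benjamini-Hochberg over all 3870 circRNAs tested, at a threshold of 0.05. Fold changes on this scale understate those of low circRNAs. Values per library were compared by exact permutation of the group assignment or, over all 12 libraries, of signs. Scripts were tested on simulated data. Other steps used Python 3.11.15 with pandas 2.3.3, numpy 2.4.6 and, for plots, matplotlib 3.10.9.

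The exon 2 circRNAs and gene lists were chosen with earlier results of these data known. Named circRNAs were the 10 with the highest mean, those called, the 5 with the smallest p in each direction, those of the 5 hosts with most circles, the 3 sets with the smallest p for end choice, the 2 highest per list, the 3 on each side of the span limit, and the extremes of size. Alternatives were other pseudocounts, filters, scalings, no variance trend, a replicate block and leaving out each library. The shares by exon number and start codon and the weighted lengths were added after the data were seen.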

Additional observations from a re-analysis of the deposited data

Results flagged for a closer look

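In 4 of 90 groups of 6 libraries checked, the highest library stood farther from its nearest neighbour than Dixon's criterion allows. Chance sets apart about 1 in 20 groups, here 4.50. The share of exon 2 signal in circles of 2 exons was 41.8% in Control replicate 2, with the other Control libraries at 38.5% to 39.2%, and that library also had the fewest exon 2 circRNAs above 0 (810.0). Without it the PZH minus Control difference of this share was -2.20 percentage points in place of -2.70. The Rps6kb1 circle of exons 2 to 4 was at 101 SRPBM in PZH replicate 6 and 67.9 to 77.8 in the other PZH libraries. Control replicate 1 had 64.5 SRPBM of the Gclc circle of exons 2 to 4 and the others had 39.2 to 48.4. For the Tlk1 circle of exons 2 to 7, Control replicate 2 stood at 8.42 SRPBM with the others at 1.90 to 4.21.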

How the results depend on the processing

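The number of exon 2 circRNAs called higher was 5 with no filter on low values, 4 among circRNAs above 0 in all libraries, and 1 without any single library. The number called lower was 7 with no filter, 2 with the filter at 3 libraries, and 0 to 2 when libraries were left out in turn. With an unadjusted p under 0.05 in limma, 94 were higher and 54 lower with no filter, 50 were lower with the filter at 3 libraries, and 31 were higher and 11 lower among circRNAs above 0 in all libraries. Leaving out libraries gave 37 to 68 higher (37 without PZH replicate 6) and 20 to 37 lower. Fewer or more circRNAs are tested under other filters, and the cause of the other changes was not tested. Lower calls came from Lemd3 and Pcdh17 where PZH replicate 1, 3 or 5, which hold the few values above 0, was left out. Sos2, which met the filter only through PZH, passed without the variance trend (limma adjusted p = 8.15e-04). Aass (limma adjusted p = 0.0140) and Rreb1 (0.0180) passed among circRNAs above 0 in all libraries. With no filter, Asph (0.0119) and Ube2g2 (0.0119) passed as lower, Bckdhb (0.0154) as higher, and Lemd3 (8.76e-12) and Pcdh17 (4.07e-06) as lower, the latter pair also with the filter at 3 libraries. The Asph log2 fold change was -0.05 there as in the main fit, and its groups overlapped almost completely. The median of the exon 2 log2 fold changes was 0.02 without Control replicate 2, against 0.12. Over 24 settings the median of circles of 5 or more exons was above that of 2-exon circles by 0.11 to 0.34, while the median of 2-exon circles itself lay between -0.04 and 0.08. Leaving out a library moved the PZH minus Control difference in the 2-exon share to between -2.89 and -2.20 percentage points and that of the start codon share to between 2.33 and 2.86. With the replicate block, 1 circRNA was called higher and 0 lower, with 52 and 23 at an unadjusted p under 0.05, and the exact p of the 2-exon share, -2.70 percentage points, was 0.0312, the smallest 6 pairs allow. The numbers did not pair the samples: correlations of same-numbered libraries were -0.12 to 0.03 over 1089 circRNAs, and 0 of 6 libraries correlated best with their own number. End choice gave 0 sets after adjustment in every setting run. This says little, as Ttc39c at the smallest possible exact permutation p, 0.00216, had an adjusted p of 0.104 over 48 sets. With the replicate block the smallest p was 0.0312. Depth per value is unknown, which limits what a 0 entry means.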
